A study of Mus musculus with 10 samples.

Results

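Residual acinar and islet markers are 8 genes whose products normally come from the exocrine and endocrine pancreas rather than from ductal tumour cells: Cela1, Cpa1, Ctrb1, Prss2, Pnlip, Cel and Reg1 on the acinar side, and Ins2 for islet beta cells. They were found by gene symbol in the deposited count table, which lists 15624 genes. Of the 8 genes, 7 were found, and Cel was not analysed here. RNA came from tumour epithelium of KPFSR mice, taken from frozen sections by laser capture microdissection, and sequenced as 4 corn oil and 6 tamoxifen libraries. Corn oil is the vehicle in which tamoxifen is given. From knowledge of the model and not from the labels, all these mice carry mutant Trp53, the pancreatic Pdx1-FlpO driver, floxed Slc7a11 and a CreERT2 expressed from the Rosa26 locus, so that tamoxifen deletes Slc7a11 in all cells that respond and not only in the tumour. The labels give no dose, duration, age or animal identity. Libraries are numbered within each group in order of deposit, and whether any share an animal is not stated. Every p-value below therefore reflects only library-to-library spread, and is too small if an animal gave more than 1 library.

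Acinar cells make up most of the normal pancreas and secrete digestive enzymes as inactive precursors. The PTF1 complex, which binds an E-box next to a TC-box, drives many of these genes, and acinar cells lose the enzymes when they turn into duct-like cells on the way to ductal cancer. Beta cells sit in islets scattered through the same tissue and secrete insulin, which mice encode in Ins1 and Ins2. Members of the Reg family are small secreted lectins that acinar cells and other gut epithelia raise strongly after injury and inflammation.

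The start-site regions of 4 members and of Ins1, the other insulin gene, are shown because the acinar enzymes share regulatory letters that the choice of genes did not use. Each is the 250 bases before the transcription start from RefSeq (GRCm38.p6), 5′ to 3′ on the gene's strand. Capitals mark the E-box letters CANNTG and the TC-box letters TTTCCC, the latter searched on both strands.
Cela1: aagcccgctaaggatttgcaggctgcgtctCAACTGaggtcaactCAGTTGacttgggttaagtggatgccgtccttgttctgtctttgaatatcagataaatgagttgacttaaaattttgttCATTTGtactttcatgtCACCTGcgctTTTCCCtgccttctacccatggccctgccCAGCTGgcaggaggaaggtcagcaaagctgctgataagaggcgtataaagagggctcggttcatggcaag
Ctrb1: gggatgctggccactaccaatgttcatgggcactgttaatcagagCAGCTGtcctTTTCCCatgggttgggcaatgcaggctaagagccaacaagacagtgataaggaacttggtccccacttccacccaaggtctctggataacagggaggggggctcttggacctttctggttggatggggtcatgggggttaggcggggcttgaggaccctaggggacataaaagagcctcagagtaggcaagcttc
Prss2: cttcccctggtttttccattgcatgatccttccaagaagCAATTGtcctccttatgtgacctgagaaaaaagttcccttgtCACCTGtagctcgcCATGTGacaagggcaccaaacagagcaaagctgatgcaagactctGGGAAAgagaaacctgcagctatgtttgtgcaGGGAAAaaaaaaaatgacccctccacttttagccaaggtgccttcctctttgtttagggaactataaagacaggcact
Reg1: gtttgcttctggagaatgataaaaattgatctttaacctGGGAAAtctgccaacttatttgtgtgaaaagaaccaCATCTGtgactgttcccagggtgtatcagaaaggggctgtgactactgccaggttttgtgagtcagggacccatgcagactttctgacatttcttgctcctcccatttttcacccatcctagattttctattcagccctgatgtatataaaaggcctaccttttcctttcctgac
Ins1: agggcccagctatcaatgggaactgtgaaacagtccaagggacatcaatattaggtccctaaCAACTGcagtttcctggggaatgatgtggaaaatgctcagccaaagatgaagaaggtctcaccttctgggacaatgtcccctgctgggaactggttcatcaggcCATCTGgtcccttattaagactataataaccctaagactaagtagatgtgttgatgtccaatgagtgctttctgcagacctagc
Windows were found for 7 of the 8 genes, the exception being Ins2. An E-box was present in 6 of these 7 and a TC-box in 6 of 7, whereas 66.2% of all 32851 windows of this length held an E-box and 21.9% a TC-box. These were the same 6 genes, and 14.2% of all windows held both. The letters CACCTG, the E-box form of classical acinar enhancers, together with TTTCCC (both strands for each) stood in 3 of the 7 (Cela1, Prss2 and Cel) and in 3.61% of all windows. Ctrb1 and Reg1 each hold 1 E-box of another form and 1 TC-box, and Ins1 holds E-boxes only. In Cela1 the CACCTG and the TC-box lay 4 bases apart, and in Prss2 the closest such pair lay 53 bases apart. In Ctrb1 the E-box CAGCTG and the TC-box also lay 4 bases apart. Pnlip held neither motif. These are letter matches only. The windows lie at chr15:100687921-100688170 on the minus strand (Cela1), chr8:111691011-111691260 on the minus strand (Ctrb1), chr6:41521526-41521775 (Prss2), chr6:78425733-78425982 (Reg1) and chr19:52264047-52264296 (Ins1), the last 3 on the plus strand.

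Total counts ran from 16473902 to 36132316 in corn oil libraries and from 6899347 (replicate 6) to 19462115 in tamoxifen libraries. Tamoxifen replicates 1 to 3 were the most alike (Pearson's r across genes 0.921 to 0.963, other pairs 0.723 to 0.878) and were kept as separate samples. Slc7a11 itself gave -1.41 on the log2 scale with an SE of 0.44 and did not pass the FDR (edgeR adjusted p 0.311). Epithelial genes were abundant in all libraries, Krt19, a ductal keratin, averaging 4807 ± 1710 (SD, n = 4) normalised CPM in the corn oil group and 3105 ± 1319 (SD, n = 6) in the tamoxifen group. Normalised CPM are CPM scaled by TMM factors, which correct for a few genes taking up much of a library. In such bulk samples fewer cells of a type and less RNA per cell cannot be told apart.

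The 7 genes together took a small share of each library. They held 0.0332%, 0.00833%, 0.0239% and 0.0111% of all counts in corn oil replicates 1 to 4. In tamoxifen replicates 1 to 6 they held 0.00585%, 0.00757%, 0.00380%, 0.136%, 0.0321% and 0.00997%. Exact 95% binomial intervals, which cover counting error only, were 0.0323% to 0.0341% for corn oil replicate 1 and 0.134% to 0.138% for tamoxifen replicate 4. Different genes made up the share in different libraries. Cela1 held 92.3%, 87.6% and 96.1% of it in tamoxifen replicates 1 to 3, Reg1 held 96.6% in tamoxifen replicate 4, and Ins2 held 41.3% in corn oil replicate 1. The 7 genes therefore did not move as 1 block, and they are described by cell of origin below.

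**Figure D1:**
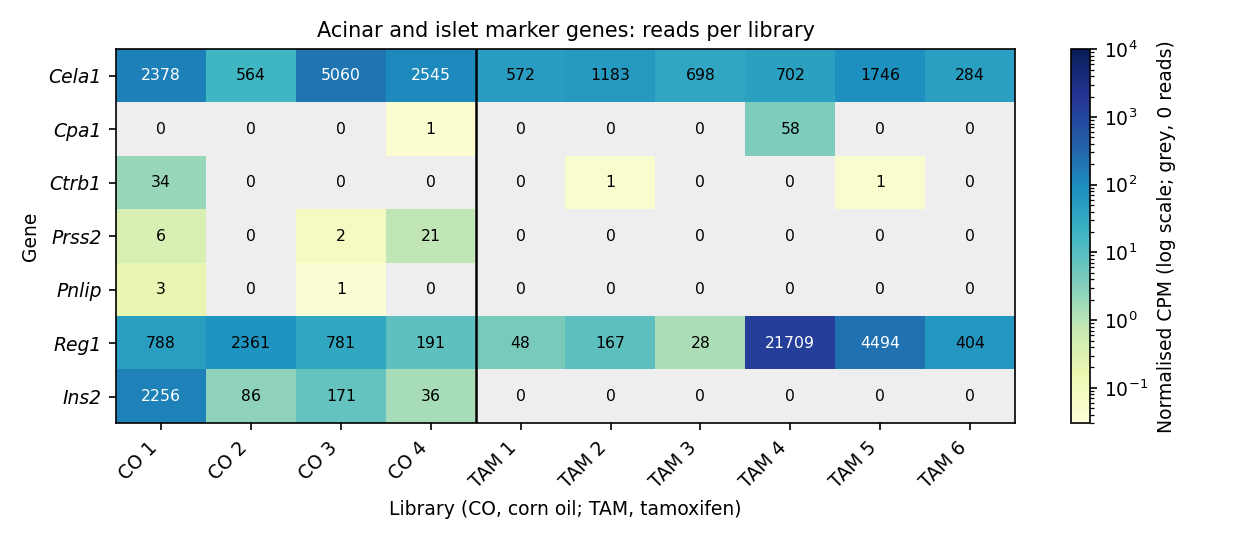
Reads of the 7 measured genes (rows) in the 4 corn oil (CO) and 6 tamoxifen (TAM) libraries (columns), with the raw read count printed in each cell and normalised CPM as colour on a log scale, grey for 0 reads. Cela1 and Reg1 are read in all 10 libraries, Ins2 in the 4 corn oil libraries and in no tamoxifen library, and the other 4 genes in 2 or 3 libraries each.

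Of the 7 genes, 3 (Ins2, Cela1 and Reg1) had enough reads for the test over all genes, edgeR's quasi-likelihood test with Benjamini-Hochberg adjustment over 13006 genes, and 4 did not. None of the 3 passed an FDR of 0.05, against 5 of all tested genes (0.0384%). Ins2 and Cela1, 2 of the 3, had an unadjusted p under 0.05 and both were lower with tamoxifen, against 9.7% of all tested genes in either direction and 5.27% lower. DESeq2 called 0 of the 3, with 1 at an unadjusted p under 0.05 and no p-value for Ins2, and limma voom with sample quality weights called 1, Ins2, against 9.62% of tested genes in either direction and 6.94% lower. Ins2 has 0 reads in all tamoxifen libraries and could be tested only through its corn oil reads, which fixed its direction, so nothing is read from these counts.

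The classical digestive enzymes were at or near 0 in most libraries. Cpa1 encodes carboxypeptidase A1, which trims amino acids from the end of peptides. It had 58 reads in tamoxifen replicate 4, 1 read in corn oil replicate 4 and 0 in the other 8 libraries. Ctrb1, a chymotrypsinogen, had 34 reads in corn oil replicate 1, 1 read each in tamoxifen replicates 2 and 5, and 0 elsewhere. Thus 98.3% of all Cpa1 reads and 94.4% of all Ctrb1 reads came from 1 library each, and not from the same one. Prss2, a trypsinogen whose active form activates the other enzymes, had 6, 0, 2 and 21 reads in corn oil replicates 1 to 4 and 0 in all 6 tamoxifen libraries. Pnlip, the lipase that digests dietary fat, had 3, 0, 1 and 0 reads in corn oil replicates 1 to 4 and 0 in all 6 tamoxifen libraries. No library held reads of all 4 enzymes. Summed, the 4 reached 3.50 raw CPM (unscaled counts per library total) in tamoxifen replicate 4, 2.61 in corn oil replicate 1 and at most 0.875 in the others.

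For 3 reads, the upper limit that a count of 0 allows, the level is 0.435 raw CPM in the shallowest library (tamoxifen replicate 6) and 0.0830 in the deepest (corn oil replicate 2). Pooled over each group, Prss2 stood at 0.282 raw CPM with corn oil (exact Poisson 95% interval 0.189 to 0.405) and at 0 of 90485455 reads with tamoxifen. That interval covers counting error only and not the spread between libraries. With the limit of 3 reads taken over the group, Prss2 was at least 8.50-fold higher in the corn oil pool, or 5.69-fold from the lower end of that interval. Of the Prss2 reads, 72.4% came from corn oil replicate 4, and without it the values were 3.10-fold and 1.34-fold. Its groups overlapped because corn oil replicate 2 was also at 0. In an edgeR fit without a filter on low counts the adjusted p was 0.347 for Prss2, 0.429 for Ctrb1, 0.474 for Cpa1 and 0.481 for Pnlip. Prss2 shares 7.83% of its 50-base words with transcripts of 6 other genes, most of them trypsinogens, so some of its reads may be counted for a copy. Cela1, Reg1, Cpa1, Ctrb1 and Pnlip share no 50-base word with another gene in GENCODE M21. In that annotation Cpa1 lies at chr6:30639218-30645363, Ctrb1 at chr8:111686519-111691010, Prss2 at chr6:41521787-41525079 and Pnlip at chr19:58652498-58681788, and no exon of these genes overlaps an exon of another gene.

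Cela1 differed from those enzymes in being read in every library. It encodes a pancreatic elastase precursor and is also known from tissues outside the pancreas, such as lung. Corn oil replicates 1 to 4 held 146, 17.2, 204 and 106 normalised CPM (2378, 564, 5060 and 2545 reads). Tamoxifen replicates 1 to 6 held 49.8, 59.7, 33.1, 44.1, 86.8 and 46.4 normalised CPM (572, 1183, 698, 702, 1746 and 284 reads). Thus 3 of the 4 corn oil libraries lay above all 6 tamoxifen libraries, while corn oil replicate 2 was the lowest of all 10, and the groups overlapped. The means were 118 ± 78.5 (SD, n = 4) and 53.3 ± 18.5 (SD, n = 6) normalised CPM, a log2 fold change of -1.15 (SE 0.49, edgeR p 0.0359, adjusted over all genes 0.476). Without corn oil replicate 2 the log2 fold change of Cela1 was -1.51 (edgeR adjusted p 0.176) and the groups no longer overlapped. Without corn oil replicate 3 it was -0.75 (edgeR adjusted p 0.739). Cela1 lies at chr15:100674421-100687921 on the minus strand of GRCm38.

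Scaled by the length of its first-numbered GENCODE transcript, Cela1 stood at 132, 15.5, 184 and 95.5 CPM per kb in corn oil replicates 1 to 4. Ctrb1 reached 2.38 CPM per kb in its highest library, Cpa1 2.30 and Prss2 1.07. Krt19 averaged 3050 CPM per kb with corn oil. Among Cela1, Ctrb1, Cpa1, Prss2 and Pnlip, Cela1 was thus the highest per unit length, and in every library it was below the keratin. The 5 tested genes whose log2 CPM was most like that of Cela1 over the 10 libraries were Edem2 (Pearson r 0.947, Spearman rho 0.964), Kctd1 (0.913 and 0.939), Tmem45a (0.907 and 0.818), Pcdhga2 (0.903 and 0.925) and Dnlz (0.896 and 0.879). These are the highest coefficients over all tested genes and share the same 10 libraries, so they are a description. None of the 5 is a digestive enzyme.

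**Figure D2:**
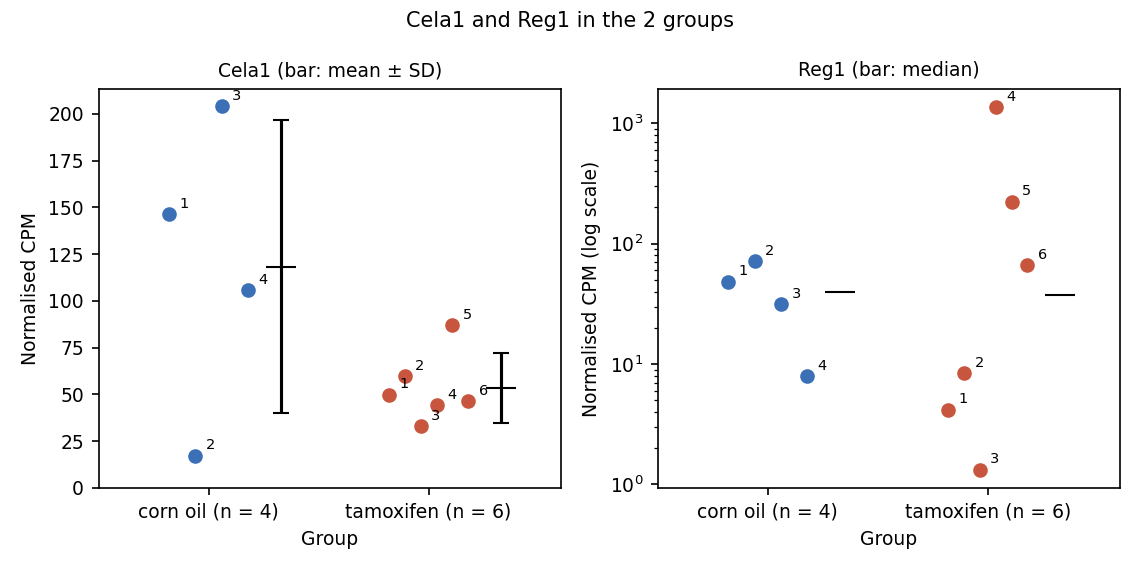
Normalised CPM of Cela1 (linear axis, bar for mean ± SD) and Reg1 (log axis, bar for the median) in corn oil (n = 4) and tamoxifen (n = 6) libraries, each point 1 library labelled with its replicate number. For Cela1 corn oil replicate 2 lies below all other libraries, and for Reg1 tamoxifen replicates 4 and 5 lie above all others.

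The wider list of acinar enzymes and granule proteins showed how uneven this content was. It named 43 genes, of which 21 were listed in the table and 9 tested. Of these 9, 2 were higher and 7 lower with tamoxifen, 0 past the FDR in edgeR (1 higher and 3 lower at an unadjusted p under 0.05, against 9.7% of all tested genes in either direction and 5.27% lower), with a median log2 fold change of -2.06 against -0.01 over all tested genes. The median was -1.35 without corn oil replicate 3. The 1 higher gene, Ctrl, passed the filter through the tamoxifen libraries alone. Of the 21 listed genes, 5 had no read in any tamoxifen library (Prss2, Try4, Cela2a, Pnlip and Pnliprp1), against 0.858% of all listed genes, and 2 had none in any corn oil library (Ctrl and Spink3), against 2.71%. Rare genes reach 0 more easily, and the groups differ in depth and number.

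The most abundant of the list was Dmbt1, a mucosal scavenger protein that ductal and gut epithelia also make, which ran from 80.8 to 4811 normalised CPM with corn oil and from 291 to 7724 with tamoxifen (log2 fold change 0.30, edgeR adjusted p 0.972). Tmed6, a cargo receptor of the secretory pathway, stood at 63.2, 68.0, 90.0 and 68.7 normalised CPM in corn oil replicates 1 to 4. Tmed6 stood at 28.7, 23.5, 18.7, 9.68, 6.81 and 0 in tamoxifen replicates 1 to 6, and here the groups did not overlap (log2 fold change -2.31, SE 0.78, edgeR adjusted p 0.327). Groups did not overlap for 3.23% of all tested genes. Pnliprp2, a lipase related to Pnlip, had 0, 1319, 1304 and 101 reads in corn oil replicates 1 to 4 and 502 in tamoxifen replicate 4, with 0 to 55 in the other tamoxifen libraries. Pla2g1b, a secreted phospholipase, was at 19.0 ± 23.8 (SD, n = 4) and 1.40 ± 1.81 (SD, n = 6) normalised CPM (log2 fold change -3.75, SE 1.31, edgeR adjusted p 0.345). Clps, the cofactor of pancreatic lipase, named after its values were seen, had 47, 0, 103 and 223 reads in corn oil replicates 1 to 4 and 1 read in all tamoxifen libraries together. Corn oil replicate 3, the highest library for Cela1, Pnliprp2 and Pla2g1b, had 0 reads of Ctrb1 and Cpa1. Ctrl, a chymotrypsin-like protease named after its values were seen, had the reverse pattern, with 0 reads in the 4 corn oil libraries and 9, 16, 11, 0, 13 and 0 in tamoxifen replicates 1 to 6 (edgeR adjusted p 0.327). Amy1 and Try5, also named after their values were seen, had more reads with tamoxifen too. Amy1, an amylase, had 0, 0, 3 and 0 reads with corn oil and 8, 28, 0, 0, 8 and 0 with tamoxifen. Try5, a trypsinogen, had 5, 1, 0 and 0 with corn oil and 20 in tamoxifen replicate 5 alone.

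Without Dmbt1, Cela1 and Tmed6, the remaining 18 listed genes summed to 18.9, 58.3, 115 and 23.9 normalised CPM in corn oil replicates 1 to 4. In tamoxifen replicates 1 to 6 they summed to 5.49, 3.94, 1.28, 36.9, 10.6 and 4.90. Tamoxifen replicate 4 thus lay within the range of the corn oil libraries and the other 5 below it. The largest sums came mostly from Pnliprp2 and Pla2g1b and do not describe all 18 genes. Pnliprp2 held 40.2 and 52.5 normalised CPM in corn oil replicates 2 and 3, and 31.5 in tamoxifen replicate 4. Pla2g1b held 11.1 and 54.4 in corn oil replicates 2 and 3. Dmbt1, Cela1 and Tmed6 were set aside after their values were seen, and the sums are not tested.

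**Figure D3:**
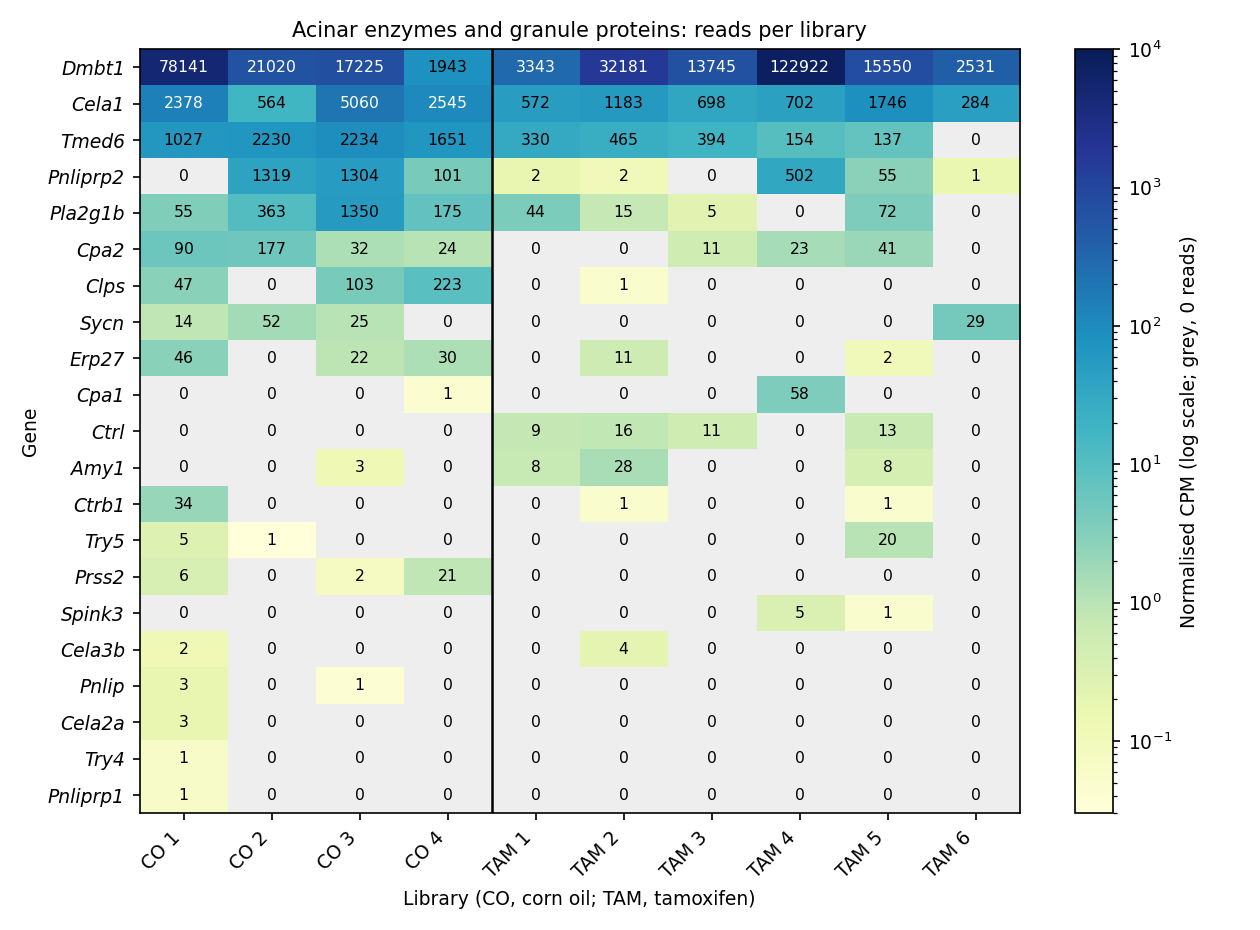
Reads of the 21 listed acinar enzymes and granule proteins (rows, ordered by mean normalised CPM) in the 4 corn oil (CO) and 6 tamoxifen (TAM) libraries (columns), with raw read counts printed and normalised CPM as colour on a log scale, grey for 0 reads. Below Dmbt1, Cela1 and Tmed6 the rows are mostly at 0, and their reads sit in different libraries.

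Acinar regulators and parts of the secretory apparatus were mostly read in all libraries. Of 22 named genes, 17 were listed and 16 tested, 5 higher and 11 lower with tamoxifen, 0 past the FDR in edgeR (1 higher and 5 lower at an unadjusted p under 0.05, against 9.7% and, for lower genes, 5.27% of all tested genes), with a median log2 fold change of -0.48. Vamp8, a granule fusion protein, had a log2 fold change of -0.61 (edgeR adjusted p 0.471), and Xbp1, a regulator of secretory capacity, averaged 607 ± 191 (SD, n = 4) and 607 ± 167 (SD, n = 6) normalised CPM. Nupr1, a stress-induced nuclear protein, had a log2 fold change of -0.49 (edgeR adjusted p 0.802) and Stxbp2, a partner of syntaxins, one of -0.31 (edgeR adjusted p 0.792). Bhlha15, the granule-maturation factor Mist1, named after its values were seen, had 48, 0, 103 and 94 reads in corn oil replicates 1 to 4 and 39, 0, 0, 10, 0 and 0 in tamoxifen replicates 1 to 6.

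Reg1 was read in every library but varied more than Cela1, the only other of the 7 genes with reads in all of them. Corn oil replicates 1 to 4 held 48.5, 72.0, 31.5 and 7.94 normalised CPM (788, 2361, 781 and 191 reads). Tamoxifen replicates 1 to 6 held 4.18, 8.43, 1.33, 1364, 223 and 66.0 normalised CPM (48, 167, 28, 21709, 4494 and 404 reads). Tamoxifen replicates 4 and 5 lay above all corn oil libraries, replicates 1 and 3 below all of them, and replicates 2 and 6 within their range. The medians were 40.0 with corn oil and 37.2 with tamoxifen, and the means 40.0 ± 27.1 (SD, n = 4) and 278 ± 539 (SD, n = 6) normalised CPM. The log2 fold change of Reg1 was 2.80 (SE 1.56, edgeR adjusted p 0.621), and 0.60 without tamoxifen replicate 4 (edgeR adjusted p 0.889). Limma voom, which weights the libraries unequally, gave -2.33 (adjusted p 0.153), so the size of the Reg1 difference rests on 1 library and its sign depends on the tool. Reg1 lies at chr6:78422711-78428667 on the plus strand of GRCm38.

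Other Reg genes followed the same libraries. Reg3b, an antibacterial lectin first known as pancreatitis-associated protein, held 66.7, 57.1, 6.93 and 0.125 normalised CPM in corn oil replicates 1 to 4. Reg3b held 9.23, 8.32, 1.94, 6271, 603 and 54.9 in tamoxifen replicates 1 to 6. Reg3g, a close relative, held 19.7, 78.7, 12.9 and 10.02 with corn oil and 10.4, 14.3, 4.50, 5742, 620 and 6.21 with tamoxifen. Both were highest in tamoxifen replicate 4 and next highest in replicate 5, the order seen for Reg1, with log2 fold changes of 5.15 (edgeR adjusted p 0.494) and 5.13 (edgeR adjusted p 0.442). Reg2 had 286 reads in tamoxifen replicate 4, 2 in corn oil replicate 1, 1 in tamoxifen replicate 5 and 0 in the other 7 libraries. Reg3a had 3 and 4 reads in tamoxifen replicates 2 and 5 and 0 elsewhere. Of the 7 named Reg genes, 6 were listed and 3 tested, all 3 higher in edgeR, 0 past the FDR (2 higher at an unadjusted p under 0.05, against 9.7% of all tested genes in either direction). Their median log2 fold change of 5.13 was 2.05 without tamoxifen replicate 4 and -0.51 under voom. The genes lie close to each other on chromosome 6, with Reg3b at 78370657 to 78373466 and Reg3g at 78466269 to 78468872.

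**Figure D4:**
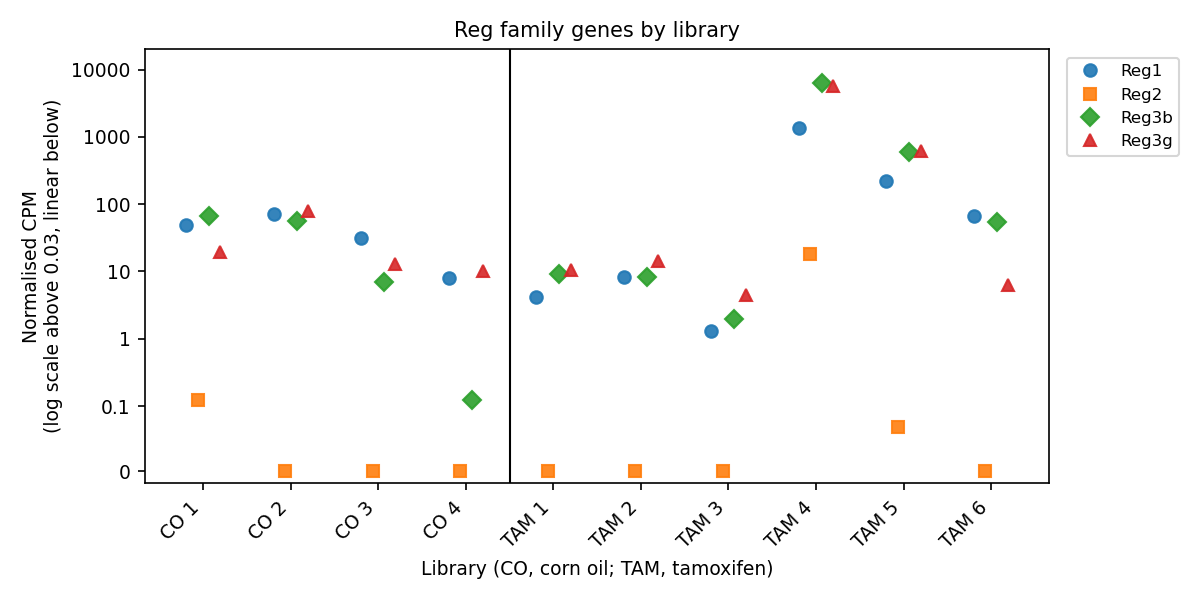
Normalised CPM of Reg1, Reg2, Reg3b and Reg3g in each library (CO, corn oil; TAM, tamoxifen), on an axis that is logarithmic above 0.03 and linear below, with points at 0 for no reads. Tamoxifen replicate 4, at 1364 for Reg1, 6271 for Reg3b and 5742 for Reg3g, lies above every other library, followed for these 3 genes by replicate 5.

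Tamoxifen replicate 4 was also the library with the Cpa1 reads and with the highest Dmbt1, while Ctrb1, Prss2 and Pnlip were at 0 there. Its 11 listed macrophage markers summed to 2341 normalised CPM, against 837 to 1373 in the other tamoxifen libraries and 1006 to 1509 with corn oil. Its 15 fibroblast markers summed to 1648, below the 2284 of tamoxifen replicate 6 and above the 519 to 1126 of corn oil. The part of these cells in the Reg values was not tested. The 5 tested genes most like Reg1 in log2 CPM over the 10 libraries were Tap2 (Pearson r 0.936, Spearman rho 0.830), Dcbld2 (0.924 and 0.903), Cd302 (0.921 and 0.782), H2-D1 (0.913 and 0.976) and 2310057J18Rik (0.912 and 0.973). Tap2 is part of the transporter that supplies peptides to MHC class I molecules, of which H2-D1 is one. The coefficient with Reg3b was 0.884 and with Reg3g 0.857, and with Dmbt1 0.561, all over the same 10 libraries and given as a description.

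Ins2 showed the sharpest division between the groups. Corn oil replicates 1 to 4 held 2256, 86, 171 and 36 reads, or 139, 2.62, 6.89 and 1.5 normalised CPM. All 6 tamoxifen libraries held 0 reads. The groups did not overlap. Of all tested genes, 1.95% had groups that did not overlap with the tamoxifen libraries lower. Of the Ins2 reads, 88.5% came from corn oil replicate 1. At the lowest corn oil level, that of replicate 4, a tamoxifen library would hold 9.16 (replicate 6) to 31.6 (replicate 3) reads. Pooled, Ins2 stood at 24.8 raw CPM with corn oil (exact Poisson 95% interval 23.8 to 25.8) against 0 of 90485455 reads with tamoxifen. That interval covers counting error only and not the spread between libraries. With the limit of 3 reads taken over the group, Ins2 was at least 747-fold higher in the corn oil pool (719-fold from the lower end of the interval). Without corn oil replicate 1 it was at least 102-fold higher (90.9-fold from the lower end). Ins2 passed the filter on low counts only through the corn oil libraries, so among tested genes it had to differ in that direction. The edgeR p was 0.000405 and the p adjusted over all genes 0.129, above the FDR of 0.05, while limma voom gave an adjusted p of 0.0129. The fitted log2 fold change, -12.49 in edgeR and -8.56 in voom, depends on how a count of 0 is offset and is no measure of size.

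Ins1, which lies on another chromosome (chr19:52264297-52265476), gave the same division. It had 639, 30, 26 and 12 reads in corn oil replicates 1 to 4 and 0 in all 6 tamoxifen libraries. Ins1 was at least 207-fold higher in the corn oil pool (192-fold from the lower end of its interval). Without corn oil replicate 1 it was at least 23.7-fold higher (18.4-fold from the lower end). These intervals, too, cover counting error only. In the unfiltered edgeR fit the adjusted p of Ins1 was 0.160. A read in every corn oil library and none in any tamoxifen library was found for 11 of 15624 listed genes (0.0704%). Of these Ins2, with 2549 reads, and Ins1, with 707, had the most. The rank of Ins1 rests on corn oil replicate 1, which held 90.4% of its reads. In replicates 2 to 4 1810007I06Rik, another of the 11 and named after its values were seen, had 84, 173 and 17 reads, more than Ins1 in each. A read in every tamoxifen library and none in any corn oil library was found for 3 genes (0.0192%). Leaving out each of the 10 libraries in turn gave 11 to 27 genes of the first kind. Dropping a library can only add to these genes, so both insulin genes stay among them by definition. Tamoxifen libraries are shallower on average, and the part of depth in the count over all genes was not tested. Ins2 shares 1.63% of its 50-base words with Ins1, so reads in the shared stretch could be counted for either gene. The GENCODE model of Ins2 spans chr7:142678656-142743381 on the minus strand, and no exon of it overlaps an exon of another gene.

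Ins1 made up 22.1% of insulin reads in corn oil replicate 1 (exact 95% binomial interval 20.6% to 23.6%), 25.9% in replicate 2 (18.2% to 34.8%), 13.2% in replicate 3 (8.81% to 18.7%) and 25.0% in replicate 4 (13.6% to 39.6%). These intervals cover counting error only. That of replicate 3 lay below that of replicate 1 and overlapped those of replicates 2 and 4. Iapp, the amyloid peptide that beta cells secrete with insulin, had 502, 19, 611 and 12 reads in corn oil replicates 1 to 4, 1 read in tamoxifen replicate 1 and 0 in the other 5. Its groups did not overlap, as for 1.95% of all tested genes with the tamoxifen libraries lower, though Iapp itself was not tested. Its adjusted p in the unfiltered edgeR fit was 0.0627. The corn oil reads amount to 22.3, 22.1, 357 and 33.3 Iapp reads for every 100 Ins2 reads. Corn oil replicate 3 had the highest ratio of Iapp to Ins2 reads, and each ratio comes from 1 library.

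**Figure D5:**
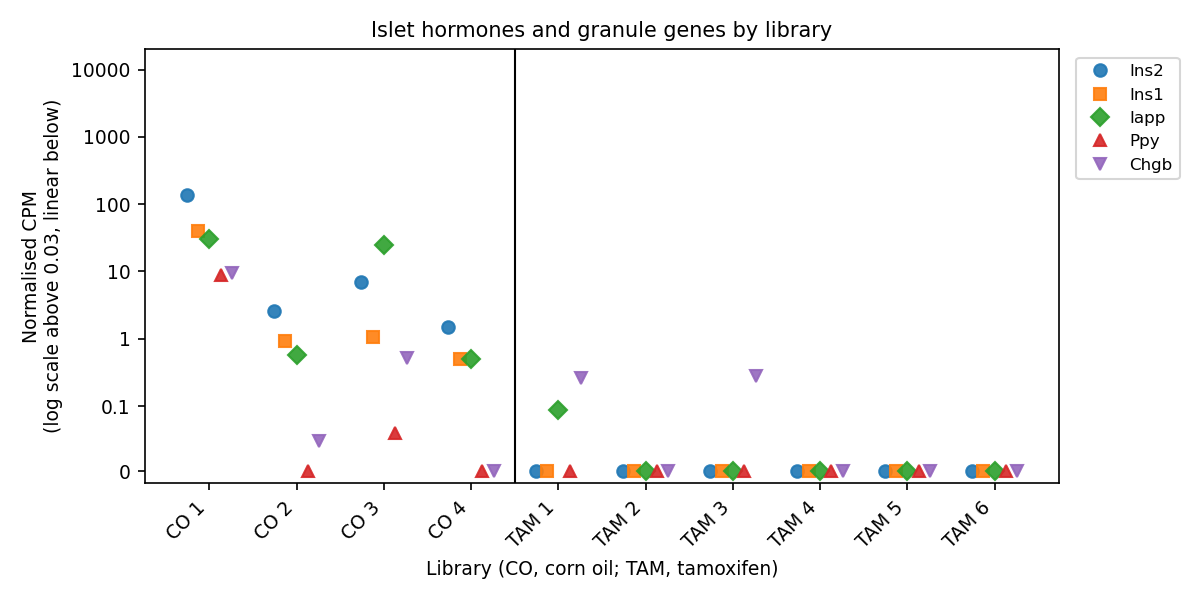
Normalised CPM of Ins2, Ins1, Iapp, Ppy and Chgb in each library (CO, corn oil; TAM, tamoxifen), on an axis that is logarithmic above 0.03 and linear below, with points at 0 for no reads. Ins2 and Ins1 are above 0 in the 4 corn oil libraries and at 0 in the 6 tamoxifen libraries, with corn oil replicate 1 highest for all 5 genes.

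Hormones of the other islet cells were scarce and not all in the same library. Named after their values were seen, Ppy (pancreatic polypeptide) had 144 reads in corn oil replicate 1 and 1 in all other libraries together, Gcg (glucagon) 12 and 1, and Sst (somatostatin) 10 and 2. Pyy (peptide YY), also a gut hormone, had 27, 0, 2 and 54 reads in corn oil replicates 1 to 4 and 47 in tamoxifen replicate 5, and 30 of the Ucn3 (urocortin 3) reads were in corn oil replicate 3, with 2 in replicate 1. Chga and Chgb, granule proteins of endocrine cells, had 34 and 153 reads in corn oil replicate 1. Over the islet lists, 38 genes were listed, and corn oil replicate 1 was the highest library for 15 of them (39.5%) and corn oil replicate 3 for 7 (18.4%), against 9.49% and 10.6% of all listed genes. Of the 38 genes, 10 had no read in any tamoxifen library, against 0.858% of all listed genes, and 0 had none in any corn oil library, against 2.71%.

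Genes of the islet lists that were abundant in the tamoxifen libraries are made by many other cells. Of 10 listed hormones and secreted peptides, 3 were tested, 2 higher and 1 lower, 0 past the FDR in edgeR. The lower gene, Ins2, had an unadjusted edgeR p under 0.05, against 5.27% of all tested genes lower at that p. Npy, a neuropeptide, had a log2 fold change of 1.98 (edgeR adjusted p 0.603). Ttr, a thyroid hormone carrier that is also among the hepatocyte markers, had one of 0.83 (edgeR adjusted p 0.825). Cpe, a peptide-processing enzyme of many secretory cells, stood at 662 ± 417 (SD, n = 4) and 1020 ± 653 (SD, n = 6) normalised CPM, and Ptprn, a granule membrane protein, at 39.1 ± 51.4 (SD, n = 4) and 18.8 ± 10.4 (SD, n = 6). Of 19 listed granule and secretory genes, 10 were tested, 4 higher and 6 lower, 0 past the FDR in edgeR. Of these 10, 1 in each direction had an unadjusted edgeR p under 0.05, against 9.7% of all tested genes in either direction. The median log2 fold change was -1.15, or -0.47 without corn oil replicate 4 and -0.33 under voom. Kcnj11 and Abcc8, the subunits of the beta cell potassium channel, had log2 fold changes of -1.26 and -1.36, edgeR adjusted p 0.812 and 0.743. Of 9 listed islet regulators, 3 were tested, 1 higher and 2 lower, 0 past the FDR in edgeR and 0 at an unadjusted p under 0.05, with a median of -0.64, or -0.37 and -0.42 without corn oil replicates 1 and 2. Pdx1, a regulator that pancreatic tumour epithelium also expresses, was at 48.0 ± 26.3 (SD, n = 4) and 30.8 ± 9.73 (SD, n = 6) normalised CPM. Rfx6, an endocrine factor, had a log2 fold change of 1.14 (edgeR adjusted p 0.919). Insm1, another endocrine factor, had 0, 5, 0 and 37 reads in corn oil replicates 1 to 4 and at most 11 in any tamoxifen library. Beta cell regulators Mafa and Nkx6-1, named after their values were seen, had at most 1 read in any corn oil library, and 13 Nkx6-1 reads stood in tamoxifen replicate 5.

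The 5 tested genes most like Ins2 in log2 CPM over the 10 libraries were Asz1 (Pearson r 0.972, Spearman rho 1), Mavs (0.945 and 0.874), Tmem147 (0.924 and 0.874), Spp2 (0.917 and 0.916) and Larp1b (0.909 and 0.874). All 6 tamoxifen libraries are tied at 0 for Ins2, so these coefficients rest on the division between the groups and on the order of 4 libraries. None of the 5 is an islet hormone. Ins1, Iapp and Ppy did not pass the filter on low counts and so could not be among them.

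Markers of other epithelial states were measured beside the acinar and islet genes. Of 22 ductal and epithelial markers, 21 were tested, 6 higher and 15 lower with tamoxifen, 0 past the FDR in edgeR (4 lower at an unadjusted p under 0.05, against 5.27% of all tested genes), with a median log2 fold change of -0.35. Summing tamoxifen replicates 1 to 3 as 1 sample moved it to 0.11, and leaving them out to 0.17. Its most abundant members were Spp1, osteopontin (log2 fold change 0.07, edgeR adjusted p 0.98), Krt18 (-0.02, edgeR adjusted p 0.997), Krt19 (-0.63, edgeR adjusted p 0.654) and Krt7 (-0.39, edgeR adjusted p 0.830). Corn oil replicate 1, the library with most insulin reads, had a summed level of 45683 normalised CPM for this list, within the 37153 to 47327 of the corn oil group. Tamoxifen replicate 4, the library with most Reg1 reads, had 39469, within the 25488 to 56705 of the tamoxifen group. Of 16 metaplasia and injury markers, 14 were tested, 4 higher and 10 lower, with a median of -0.32, or 0.04 without tamoxifen replicates 1 to 3. In edgeR 0 passed the FDR and 2 were lower at an unadjusted p under 0.05, against 5.27% of all tested genes. Among the metaplasia markers Clu, a secreted chaperone raised in injured acinar tissue, had a log2 fold change of -0.98 (edgeR adjusted p 0.384). Its groups did not overlap, as for 1.95% of all tested genes with the tamoxifen libraries lower. Tff2, a trefoil peptide of gastric mucous cells, had one of -2.4 (edgeR adjusted p 0.316) and Cd44, a hyaluronan receptor, one of -0.28 (edgeR adjusted p 0.909). Mmp7, a protease of metaplastic ducts, had one of 2.33 (edgeR adjusted p 0.701) and, like Reg1, was highest in tamoxifen replicate 4, with a Pearson r of 0.870 to Reg1 in log2 CPM.

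Of the non-epithelial markers, Col3a1 and Fbln2 led the fibroblast list, Cd14 and Lyz2 the macrophage list and S100a8 and S100a9 the neutrophil list. Plvap and Cldn5 led the endothelial list and Cidec and Fabp4 the adipocyte list, while lymphocyte genes were led by Cd79b and Cd3g. Hepatocyte markers were led by Ttr and Apoa1, and of erythroid markers Alas2 alone was listed. None of the 8 lists held a gene past the FDR in edgeR. An unadjusted edgeR p under 0.05 was found for 2 of 14 tested fibroblast, 1 of 11 macrophage and 2 of 4 hepatocyte genes. Of all tested genes, 9.7% had such a p in either direction. Of the tested fibroblast markers 13 were higher and 1 lower (median log2 fold change 0.74), of the macrophage markers 2 higher and 9 lower (median -0.42), and of the hepatocyte markers 4 higher and 0 lower (median 2.92). The 2 hepatocyte genes at that p, Alb and Fga, named after their values were seen, each had 9 reads in 1 corn oil library and none in the others. Alb passed the filter through the tamoxifen libraries alone, which fixed its direction. Of the Fga reads, 59.5% came from tamoxifen replicate 6. Nothing is therefore read from the hepatocyte counts. Lymphocyte and erythroid markers summed to at most 3.95 and 1.09 normalised CPM in any library.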

How the data were processed

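The deposited file holds raw counts for 10 libraries, 1 row a gene symbol. The submitters' processing notes name bcl2fastq 2.17, STAR 2.5.2b, featureCounts 1.5.0-p3 and mm10. Library kits were SMART-seq v4 and Nextera XT after a Qiagen RNA extraction, per the labels' protocols, and these do not mark strand. The treatment of multimapping reads, the annotation counted against or any filter on genes is not given in the sources used here.

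These counts, unchanged, entered edgeR 4.0.16 (R 4.3.3; filterByExpr, TMM factors, quasi-likelihood F test without covariates, FDR 0.05), tamoxifen against corn oil over all 10 libraries. SE was computed as |log2 fold change| over the root of F. Log2 CPM used a prior count of 2. Other settings tried were RLE factors, upper-quartile factors, an unfiltered table, DESeq2 1.42.0, limma 3.58.1 voom with sample quality weights, an FDR of 0.1, leaving out each library, and summing or leaving out tamoxifen replicates 1 to 3. Genes read in 1 group only, overlap between groups and pooled insulin and Prss2 reads without single libraries were added after seeing the data. The fit was tested on simulated data. Positions, transcript lengths and 50-base words came from GENCODE M21 (GRCm38), in which 93.8% of symbols were found.

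The 8 genes and the lists were chosen with earlier results of these data known. The rule for naming took all 8 genes, of each other pancreatic list the genes past the FDR and the 4 of highest mean normalised CPM, of each other cell type the 2 highest, and for each of the 8 genes that was tested with at least 10 counts in at least 4 libraries the 5 most alike by Pearson's r. 1 gene that the rule names is not reported here. Other genes named are said to be chosen after their values were seen.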

Additional observations from a re-analysis of the deposited data

Results flagged for a closer look

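Of 28 sets of values within a group that were looked at, 16 held a library far from the others. How many chance would give was not tested, and the sets share the same libraries. Several of these rest on 1 or 2 reads, and many of the genes are at 0 in most libraries. All values are normalised CPM.

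Tamoxifen replicate 4 was highest for Reg1 (1364, others 1.33 to 223), Reg2 (17.97, others 0 to 0.0497), Reg3b (6271, others 1.94 to 603), Reg3g (5742, others 4.50 to 620), Cpa1 (3.64, others 0), Pnliprp2 (31.5, others 0 to 2.74) and Dmbt1 (7724, others 291 to 1624). The share of its counts taken by the 7 genes was also the highest, at 0.136% against 0.00380% to 0.0321%.

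Corn oil replicate 1 was highest for Ins2 (139, others 1.5 to 6.89), Ins1 (39.3, others 0.50 to 1.05), Ctrb1 (2.09, others 0) and Dmbt1 (4811, others 80.8 to 694), and for Reg2 at 0.123 from 2 reads (others 0). Reg3g was highest in corn oil replicate 2 (78.7, others 10.02 to 19.7). Cpa1 at 0.0416 in corn oil replicate 4 and Iapp at 0.0871 in tamoxifen replicate 1 each rest on 1 read (others 0).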

How the results depend on the processing

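No gene of the 7 passed an FDR of 0.05 under any alternative except limma voom with sample quality weights, which called 1, Ins2 (log2 fold change -8.56). Ins2 stayed lower with tamoxifen in all 17 fits tried (log2 fold change -12.85 to -8.56, adjusted p 0.0129 to 0.844, DESeq2 giving none) and Cela1 in all 17 (log2 fold change -1.51 to -0.75, adjusted p 0.171 to 0.980). Reg1 was higher in 16 of 17 and turned to -2.33 under voom. Over all genes, 243 were called by DESeq2, 1251 by voom, 18 at an FDR of 0.1, 0 with tamoxifen replicates 1 to 3 summed as 1 sample and 0 without these 3. With 1 library left out, 0 to 11 genes were called, the groups did not overlap for 1 to 3 of the 7 genes (3 without corn oil replicate 2: Ins2, Cela1 and Prss2), and 11 to 27 genes were read in every corn oil and no tamoxifen library (21, 22 and 18 without corn oil replicates 2, 3 and 4, and 19 and 27 without tamoxifen replicates 4 and 5). With each corn oil library left out in turn, the corn oil excess was at least 102-fold to 1113-fold for Ins2 and 23.7-fold to 306-fold for Ins1 (lowest without replicate 1), and 3.10-fold to 13.1-fold for Prss2 (lowest without replicate 4). Without Cela1 the median share of the 7 genes with corn oil was 0.00529% in place of 0.0175%. The median of the Reg list turned to -0.51 under voom, that of the islet granule list was -0.33 there (-1.15 in edgeR), and that of the acinar enzymes was -1.27 without tamoxifen replicates 1 to 3. Medians changed sign in at least 1 fit for the ductal list (-0.70 to 0.17), the metaplasia list (-0.89 to 0.04) and the islet hormones (-0.42 to 1.99). No paired analysis was possible because the labels give the groups no shared replicate numbers. Cpa1, Ctrb1, Prss2 and Pnlip have 0 reads in most libraries, where only the limit of 3 reads can be given.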
